A study of Mus musculus with 8 samples.

Results

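The conserved oligomeric Golgi (COG) complex is a tether of the Golgi apparatus built from 8 subunits, encoded in the mouse by Cog1 to Cog8. RNA of 7 of these 8 genes was measured on 8 arrays of cultured myotubes, among 19505 genes in all. Members were chosen by gene symbol, and the brightest row of a symbol stood for the gene, although each of the 7 had a single row. Cog8 had no row by symbol, gene identifier or accession and its RNA was not analysed here. The complex itself was selected with the difference of Cog4 between the groups already known, so the differences between groups below are descriptions, without a test.

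COG belongs to a family of rod-like vesicle tethers and works as a pair of lobes. Lobe A holds Cog1, Cog2, Cog3 and Cog4, lobe B holds Cog5, Cog6, Cog7 and Cog8, and Cog1 and Cog8 join the lobes. The complex catches vesicles that carry glycosylation enzymes and other residents back through the Golgi stack, by binding golgins, Rab GTPases and SNAREs, and inherited loss of most of its subunits causes congenital disorders of glycosylation. In muscle, the Golgi of a myotube is rebuilt around the nuclei during differentiation, and glycans made there decorate proteins of the sarcolemma.

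All 8 arrays came from satellite cells that carried RhoA flox/flox alleles and a Pax7-nGFP transgene, which marks satellite cells with a nuclear green fluorescent protein used to sort them by flow cytometry from hindlimb muscle. The myoblasts were differentiated for 3 days and kept for 48 h with an adenovirus, Ad-mCherry in 4 arrays and Ad-Cre-mCherry in the other 4. Both viruses express the red fluorescent protein mCherry, and the second also expresses the Cre recombinase, which cuts out a floxed exon of RhoA, a small GTPase that controls actin and contractility. The comparison asks which genes differ in myotubes after Cre acts on RhoA, whose row fell only in part. No array held Cre without floxed RhoA, so Cre and loss of RhoA cannot be told apart, and the sources used here give neither age nor sex of the mice. The labels number 4 replicates per group, while the methods give a smaller number of independent cultures, so the spread between arrays of a group may be partly technical.

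RhoA checked the labels. Its levels, as log2 values, were 11.16, 11.39, 11.08 and 11.39 in Ad-mCherry replicates 1 to 4 and 9.99, 10.87, 10.87 and 10.23 in Ad-Cre-mCherry replicates 1 to 4. Every Ad-Cre-mCherry array lay below every Ad-mCherry array, with a difference of -0.77 (SE 0.23, n = 4 per group) that stayed past both thresholds of the study (an unadjusted p under 0.05 with at least a 1.2-fold change) in 11 of 12 fits leaving out 1 array or 1 replicate number, and missed them without replicate 4, where the difference was -0.63. In Ad-Cre-mCherry arrays the RhoA row stood at 0.59 of its Ad-mCherry level, with an adjusted p of 0.729 (limma). By number the differences were -1.17, -0.52, -0.21 and -1.16, so the fall was small in replicate 3. The sources used here do not say whether the probes of this row lie in the floxed exon. Array medians lay between 4.78 and 4.87. The 10 myotube markers averaged 15.82 to 16.65 in Ad-mCherry arrays and 15.16 to 16.47 in Ad-Cre-mCherry arrays, and 9 of the 10 were lower in the second group. Of the 10, 2 passed both thresholds in either direction, as did 6.42% of all genes. Marker lists of satellite cells, fibroblasts, endothelial cells, macrophages and adipocytes averaged 3.25 to 6.73 in any array, with 0 genes past both thresholds. Their part in the values of the COG genes was not tested.

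The start regions of the COG genes are shown first, since the subunits of 1 complex are made from separate genes and their levels can be set beside the sequence each starts from. The windows run from 250 bases before to 50 bases after a transcription start, as RefSeq gives it on the GRCm38.p6 build, and 9 windows cover the 8 genes because Cog4 has 2 starts. The 4 windows printed belong to Cog1 and Cog4, with the larger differences between groups, and to Cog3, whose groups did not overlap. Capitals mark the ETS core CGGAAG, read on either strand of the window, and the YY1 motif AAGATGGCG.
Cog1, chr11:113649279-113649578, plus strand: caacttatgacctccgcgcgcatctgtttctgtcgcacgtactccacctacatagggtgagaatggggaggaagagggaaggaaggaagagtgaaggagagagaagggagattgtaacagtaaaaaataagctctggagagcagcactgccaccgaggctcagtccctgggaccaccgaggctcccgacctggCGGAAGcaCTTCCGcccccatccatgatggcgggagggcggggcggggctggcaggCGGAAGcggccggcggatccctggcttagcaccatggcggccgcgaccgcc
Cog3, chr14:75754444-75754743, minus strand: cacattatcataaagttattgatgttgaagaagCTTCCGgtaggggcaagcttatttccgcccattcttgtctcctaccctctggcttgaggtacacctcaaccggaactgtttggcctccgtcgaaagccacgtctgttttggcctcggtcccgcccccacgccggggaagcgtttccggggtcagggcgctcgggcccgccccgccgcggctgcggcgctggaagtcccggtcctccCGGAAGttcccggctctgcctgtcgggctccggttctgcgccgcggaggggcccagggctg
Cog4 start 1, chr8:110846350-110846649, plus strand: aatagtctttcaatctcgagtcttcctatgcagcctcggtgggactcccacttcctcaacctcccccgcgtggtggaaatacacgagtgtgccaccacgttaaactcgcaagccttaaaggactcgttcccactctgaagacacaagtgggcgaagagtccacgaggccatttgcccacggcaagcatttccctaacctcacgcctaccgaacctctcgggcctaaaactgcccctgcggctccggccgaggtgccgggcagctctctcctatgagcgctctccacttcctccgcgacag
Cog4 start 2, chr8:110846774-110847073, plus strand: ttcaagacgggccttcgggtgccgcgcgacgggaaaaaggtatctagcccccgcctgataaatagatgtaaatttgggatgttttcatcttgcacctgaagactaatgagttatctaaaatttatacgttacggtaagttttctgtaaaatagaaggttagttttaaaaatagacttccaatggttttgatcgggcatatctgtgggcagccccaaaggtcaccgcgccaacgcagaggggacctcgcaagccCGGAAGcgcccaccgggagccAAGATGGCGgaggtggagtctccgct

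The ETS core was found in 7 of the 9 windows, and each member but Cog5 had it in at least 1 window. Over all genes it was found on either strand in 16.9% of 32851 windows, and in 21.7% of 18929 windows of measured protein-coding genes. The Cog1 window had 3 matches, with first bases at -57, -49 and -1 from the start base, and the Cog3 window had matches at -217 and -11. Of the windows of Cog4, the upstream one had no match and the downstream one had an ETS core at +3. Only that downstream window of Cog4 had the YY1 motif, at +24, a motif found in 1.4% of all windows and in 1.92% of those of measured protein-coding genes. The CArG box, the element bound by Srf, was in 0 of the 9 windows and in 1.63% of all windows. The printed matches did not overlap each other, while the 2 matches in the Cog7 window shared bases. The motifs were picked after these windows had been read, and a match is a run of letters, not a bound site.

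Among the lobe A genes, Cog4 and Cog1 were higher in Ad-Cre-mCherry myotubes. Cog4, the subunit that binds the SNARE Stx5 and its partner Sly1, had levels of 6.83, 7.54, 8.12 and 7.98 in Ad-mCherry replicates 1 to 4 and of 8.03, 8.66, 9.07 and 9.03 in Ad-Cre-mCherry replicates 1 to 4. The groups overlapped, because the lowest Ad-Cre-mCherry array lay under the highest Ad-mCherry array, yet each Ad-Cre-mCherry array lay above the Ad-mCherry array of its own number. The group means were 7.62 ± 0.58 and 8.70 ± 0.48 (SD, n = 4 each), a difference of 1.08 (SE 0.33, 95% interval 0.33 to 1.83) or 2.11-fold. Within replicate numbers 1 to 4 the differences of Cog4 were 1.2, 1.12, 0.95 and 1.05, an SD of 0.11. The gap between groups was thus almost the same at each number, and with replicate number as a block the interval was 0.70 to 1.46. RNA was taken from whole cultures, so a larger share of cells with Cog4 RNA and more Cog4 RNA per cell cannot be told apart, here and for every gene below.

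Cog1, which bridges lobe A to lobe B, had levels of 10.71, 10.98, 10.21 and 10.75 in Ad-mCherry replicates 1 to 4 and of 11.47, 11.57, 10.68 and 11.60 in Ad-Cre-mCherry replicates 1 to 4. Replicate 3 was the lowest array of both groups, and Ad-Cre-mCherry replicate 3 was the only array of its group inside the Ad-mCherry range. The means were 10.66 ± 0.32 and 11.33 ± 0.44 (SD, n = 4 each), a difference of 0.67 (SE 0.26, 95% interval 0.09 to 1.24) or 1.59-fold. By number the differences were 0.76, 0.59, 0.47 and 0.85, all of one sign. With Ad-Cre-mCherry replicate 3 left out the difference was 0.88, and with Ad-mCherry replicate 3 left out it was 0.52.

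Cog2, a core subunit of lobe A that binds the tether p115 (Uso1), had levels of 7.52, 8.31, 7.93 and 8.22 in Ad-mCherry replicates 1 to 4 and of 8.68, 8.64, 8.62 and 8.07 in Ad-Cre-mCherry replicates 1 to 4. Ad-Cre-mCherry replicate 4 sat inside the Ad-mCherry range and the other 3 arrays of its group lay above it. The difference was 0.51 (SE 0.23, n = 4 per group), with a 95% interval whose lower end lay just under 0 and whose upper end was 1.02. By number the differences were 1.16, 0.33, 0.69 and -0.15, so that replicate 4 ran the other way. The difference was 0.73 without replicate 4 and 0.29 without replicate 1.

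Cog3, the lobe A subunit through which the complex also meets COPI coat proteins, went the other way. Its levels were 9.78, 9.24, 9.25 and 9.26 in Ad-mCherry replicates 1 to 4 and 8.98, 9.18, 9.07 and 9.07 in Ad-Cre-mCherry replicates 1 to 4. The groups did not overlap, but the gap between them was narrow, since 3 of the 4 Ad-mCherry arrays were within 0.08 of the highest Ad-Cre-mCherry array. The difference was -0.31 (SE 0.17, 95% interval -0.69 to 0.08, n = 4 per group), and it was -0.17 without Ad-mCherry replicate 1, which stood far above the rest of its group, and -0.14 without both arrays of replicate 1. By number the differences of Cog3 were -0.80, -0.06, -0.18 and -0.19.

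**Figure D1:**
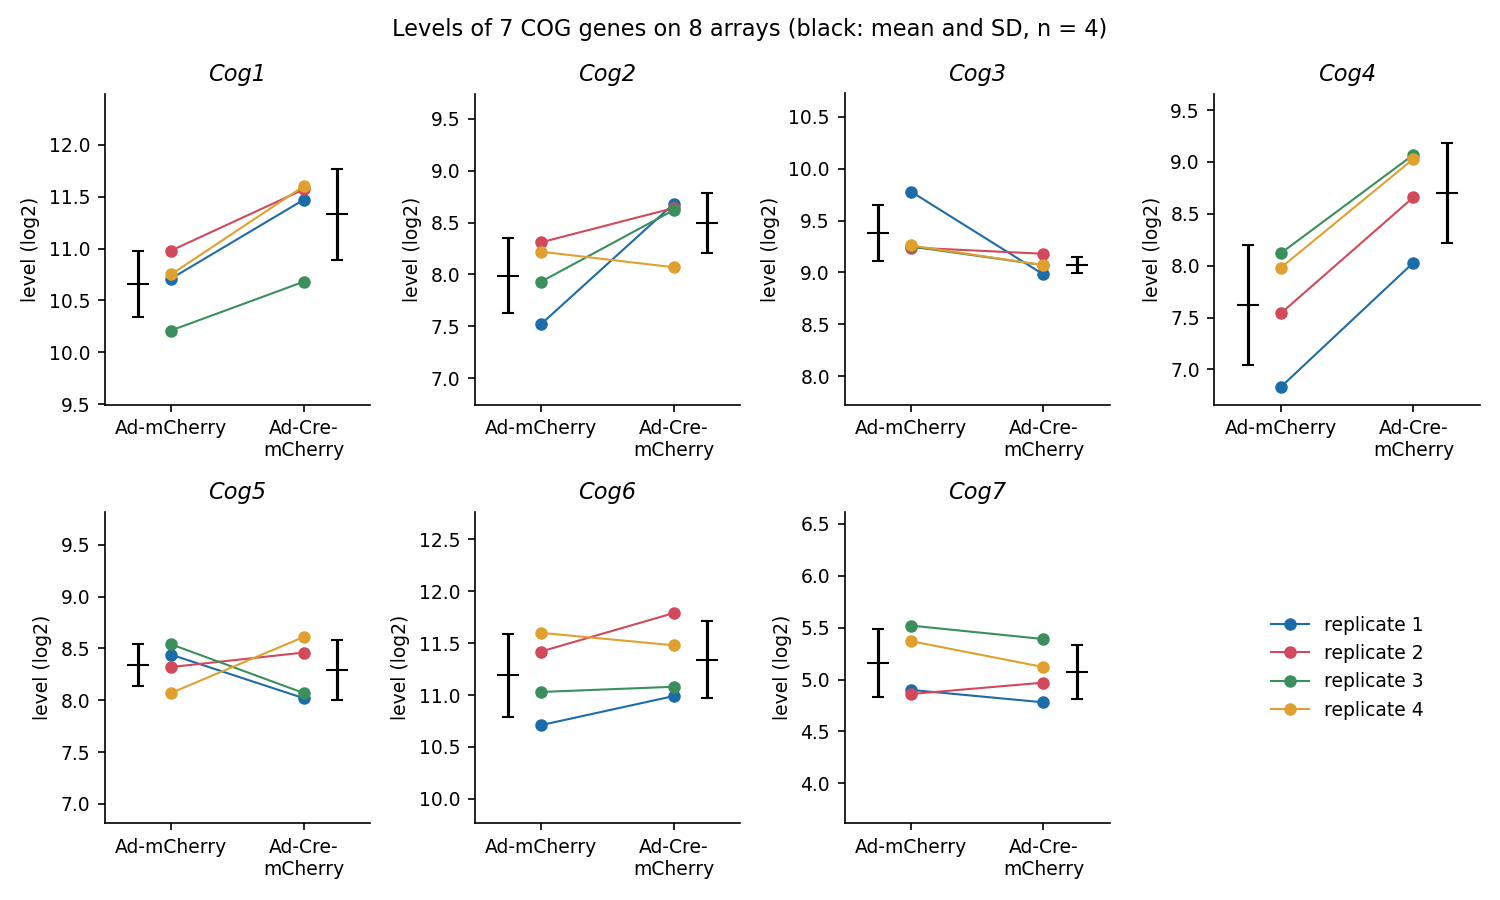
Each panel plots 1 COG gene, with the level (log2, 3 units high in every panel) in the 4 Ad-mCherry and 4 Ad-Cre-mCherry arrays, lines joining arrays of the same replicate number, and black marks for the mean and SD of 4 arrays. The 4 lines of Cog4 run nearly parallel upward with differences of 0.95 to 1.2, whereas those of Cog5 cross.

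The measured lobe B genes showed smaller differences, the largest being 0.15 in size. Cog5, which pairs with Cog7, had levels of 8.44, 8.32, 8.54 and 8.07 in Ad-mCherry replicates 1 to 4 and of 8.02, 8.46, 8.07 and 8.61 in Ad-Cre-mCherry replicates 1 to 4. The groups covered nearly the same range, with 2 numbers higher and 2 lower, and the difference was -0.05 (95% interval -0.49 to 0.38). Cog6, the subunit that binds the SNARE Stx6, had 10.71, 11.42, 11.03 and 11.60 in Ad-mCherry and 10.99, 11.79, 11.08 and 11.48 in Ad-Cre-mCherry replicates 1 to 4. Replicates 2 and 4 were above replicates 1 and 3 in both groups, and the difference between groups was 0.15 (95% interval -0.43 to 0.72).

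Cog7, whose loss in humans causes a severe disorder of glycosylation, was the dimmest of the 7 rows, which says nothing of its RNA amount because probes differ in brightness. Its levels were 4.90, 4.86, 5.52 and 5.37 in Ad-mCherry and 4.78, 4.97, 5.39 and 5.12 in Ad-Cre-mCherry replicates 1 to 4. Replicates 3 and 4 were above replicates 1 and 2 in both groups. The difference between groups was -0.10 (95% interval -0.58 to 0.38), and no value was used here to tell how far this row lay above background.

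Over the 7 measured genes, 4 were higher and 3 lower in Ad-Cre-mCherry myotubes, and the median difference was 0.15, against 0.0 over all 19505 genes. The median was 0.59 over the 4 lobe A genes and -0.05 over the 3 lobe B genes. Lobe A holds Cog4, known to differ at selection, and Cog3, which went the other way, and lobe B lacks Cog8. No difference between the lobes is read from these medians. At the thresholds of the study 2 members were counted, Cog1 and Cog4, both higher, and 0 were lower. Of all genes, 6.42% passed these thresholds, 2.92% higher and 3.5% lower. Cog4 passed in all 12 fits that left out an array or a replicate number, and Cog1 in 5 of them. Cog1 missed them without Ad-Cre-mCherry replicate 1, 2 or 4, without Ad-mCherry replicate 3, and without replicate numbers 1, 2 or 4. Without those arrays its difference was 0.52 to 0.69.

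At an adjusted p under 0.05 (limma, Benjamini-Hochberg over all genes) 0 members and 0 genes in all passed, which is 0.0% of the genes, and the smallest adjusted p of any gene was 0.68. At an unadjusted p under 0.05 there were 1252 genes, the same number as with the fold threshold added. With replicate number as a block, 3 members passed the thresholds, Cog1, Cog2 and Cog4, all higher, where 14.7% of all genes passed, 6.54% higher and 8.2% lower. Cog2 then missed them without replicate 1, 2 or 3, while Cog1 and Cog4 passed with any 1 replicate number left out. In the blocked fit of all arrays Cog4 was the 1 member at an adjusted p under 0.05 (limma), as were 0.323% of all genes. With any 1 replicate number left out, 0 members were. The 4 arrays of each group did not overlap for 1 member, Cog3, and for 3.75% of all genes. The sign was the same within all 4 replicate numbers for 3 members, Cog1, Cog3 and Cog4, and for 21.0% of all genes. Because the complex was selected on this contrast, these counts are given beside the shares and nothing is read from them.

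**Figure D2:**
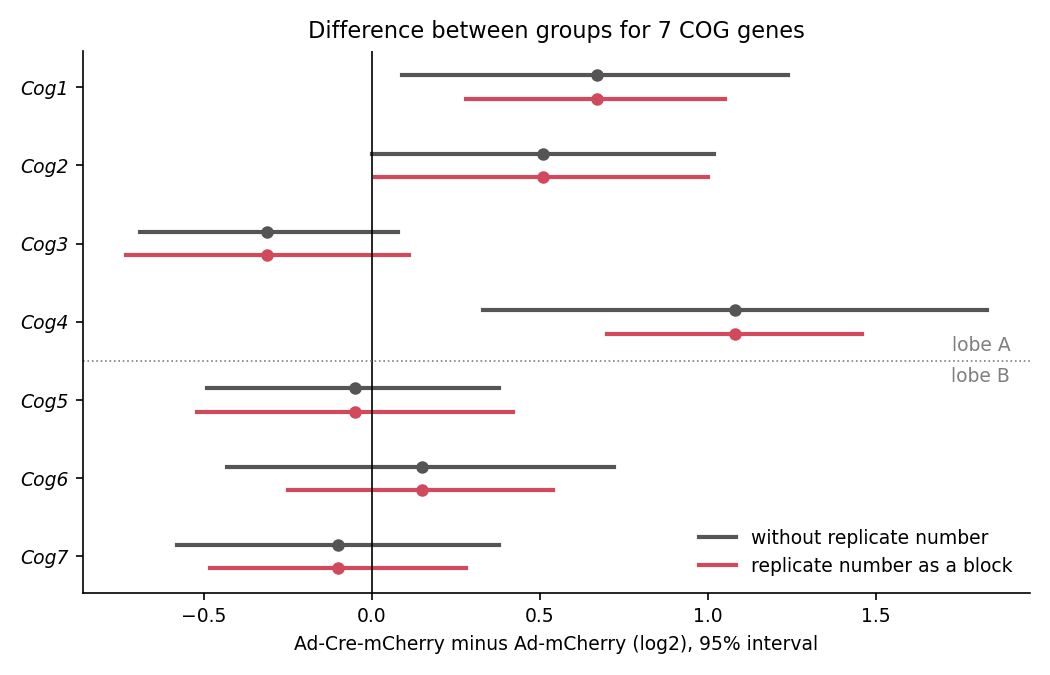
The horizontal axis gives the difference Ad-Cre-mCherry minus Ad-mCherry (log2) of each COG gene, points mark the estimate, and bars the 95% interval without (grey) and with (red) replicate number as a block, above and below a dotted line between lobe A and lobe B. The interval of Cog4 narrows from 0.33 to 1.83 without the block to 0.70 to 1.46 with it, and those of Cog5, Cog6 and Cog7 span 0 in both fits.

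The share of the spread that lay between replicate numbers, rather than between groups, differed between members. The sum of squares of a gene over the 8 arrays was split into group, replicate number and remainder. Replicate number took 90.4% for Cog7 and 87.5% for Cog6, 47.5% for Cog1 and 41.8% for Cog4, and 15.2%, 14.8% and 7.12% for Cog3, Cog2 and Cog5. The remainder was largest in Cog5, at 91.4%, and smallest in Cog4, at 0.418%, with 2.44% in Cog1. By these shares, most of the spread of Cog6 and Cog7 lay between replicate numbers and most of that of Cog5 in the remainder. The spread of Cog1 and Cog4 lay in both factors, with little left over. The shares are not scaled for the number of levels of a factor. Replicate number has more levels than group, so a larger share is expected for it even without an effect. No share over all genes was computed, and the F test below called neither Cog6 nor Cog7.

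The mean of both groups in Cog4 was 7.43 for replicate 1, 8.10 for replicate 2, 8.59 for replicate 3 and 8.50 for replicate 4. Cog4 was the 1 member of 7 whose level differed between replicate numbers in an F test (limma, group and replicate number as factors, adjusted p = 0.0264 over all genes), a call made for 12.0% of all genes. The adjusted p of this limma test was 0.132 for Cog1, 0.153 for Cog6, 0.297 for Cog7 and 0.842 to 0.983 for Cog2, Cog3 and Cog5. The adjusted p of Cog4 by limma was 0.398 without replicate 1, the lowest array of both groups, 0.072 without replicate 3, and 0.0624 with a trended and robust variance model. The F test divides by the same small remainder as the blocked comparison, for which Cog4 was already known, so it is not independent of the choice of the complex.

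**Figure D3:**
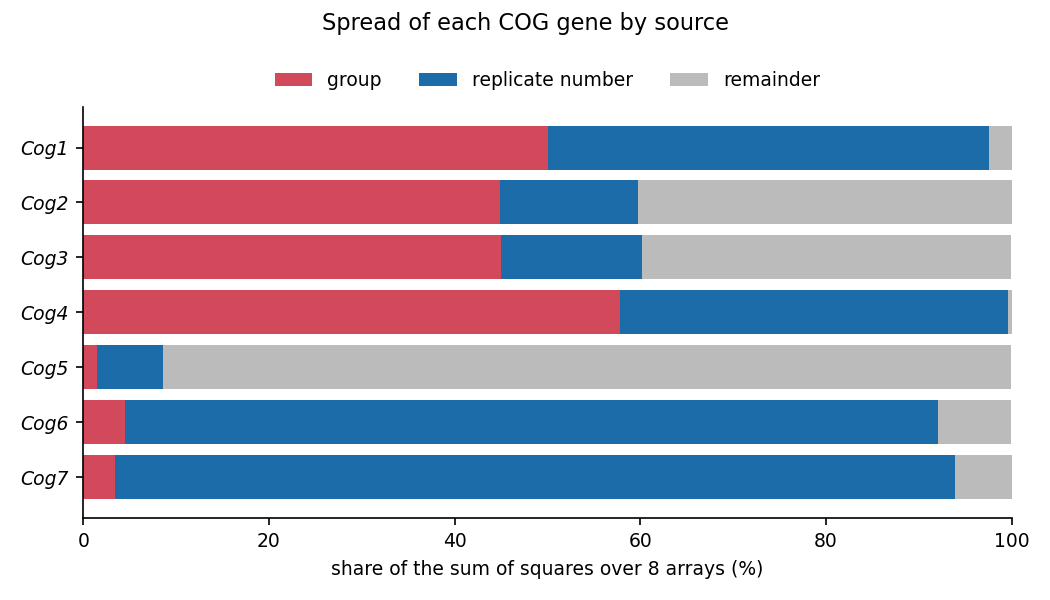
Bars give, for each COG gene, the share (%) of the sum of squares over 8 arrays that lay between groups (red), between replicate numbers (blue) and in the remainder (grey). Cog6 and Cog7 are mostly blue (87.5% and 90.4%), Cog5 is mostly grey (91.4%), and Cog4 has almost no grey (0.418%).

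With group means removed, the 7 genes did not move as a block across the arrays. Of the 21 pairs of genes, 12 had a correlation above 0 and 8 below 0, and the median was 0.08. The highest was 0.86, between Cog4 of lobe A and Cog7 of lobe B, both lower in replicates 1 and 2 than in replicates 3 and 4. The Cog7 row ran from 4.78 to 5.52, near the array medians, and its distance from background is not known. The lowest correlation was -0.75, between Cog1 and Cog7. Within lobe A, Cog4 correlated at -0.42 with Cog1, 0.17 with Cog2 and -0.57 with Cog3. With replicate number means removed as well, Cog4 and Cog7 correlated at 0.30 and Cog4 and Cog1 at 0.52. After that second step the 2 arrays of a number mirror each other, so its correlations rest on only 4 differences within numbers. For Cog4 they rest on the 0.418% of its sum of squares left as remainder. All correlations here are descriptions over 8 arrays normalized together, in which each replicate number stands for 2 arrays.

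**Figure D4:**
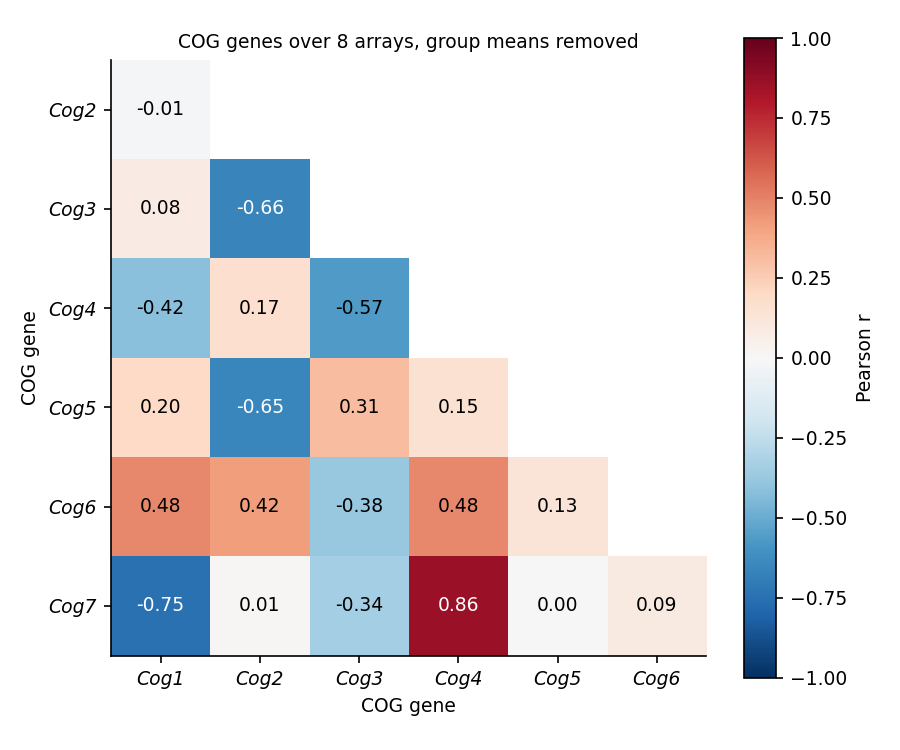
Each cell gives the Pearson correlation of the levels of 2 COG genes over 8 arrays after group means were removed, from blue (-1) to red (1). Cog4 with Cog7 stands at 0.86 and Cog1 with Cog7 at -0.75. Pairs within lobe A run from -0.66 to 0.17, and pairs within lobe B are pale, from 0.0 to 0.13.

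The genes whose 8 levels followed those of Cog4 most closely, by Pearson correlation with group differences left in, were Olfr1340 (r = 0.963), Ndufaf5 (0.962), Olfr1316 (0.959), Etv5 (0.959) and Atpaf1 (0.954), with 1 unnamed gene passed over. Ndufaf5 assembles respiratory complex I, Atpaf1 assembles the mitochondrial ATP synthase, Etv5 is a transcription factor of the ETS family, and the Olfr genes are olfactory receptors. Ndufaf5 ran from 8.61 in Ad-mCherry replicate 1 to 10.22 in Ad-Cre-mCherry replicate 4, and Etv5 from 10.70 in Ad-mCherry replicate 1 to 13.72 in Ad-Cre-mCherry replicate 3. The Olfr1340 row stayed between 2.62 and 3.04, near the lowest values of the table. Like Cog4, all 5 had their lowest array in Ad-mCherry replicate 1. They are the highest of 19504 correlations over only 8 arrays, and such a search can yield values this high without any link. Shared control with Cog4 was not tested, and nothing is read from the roles of these genes. No COG gene was near the top of this order: among 19504 genes Cog2 ranked 1756, Cog6 3168, Cog7 3924, Cog1 4796, Cog5 9966 and Cog3 19095.

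Several members share sequence with another gene on the opposite strand, and the sources used here give neither strand nor position of the probes, so whether signal was shared was not tested. Cog4 starts 203 bases from Sf3b3, a splicing factor subunit, and overlaps it by 207 bases. Sf3b3 had levels of 8.34, 8.86, 8.89 and 9.54 in Ad-mCherry and 8.47, 8.84, 9.41 and 9.77 in Ad-Cre-mCherry replicates 1 to 4, a difference of 0.22 (SE 0.33) against 1.08 for Cog4. Both neighbours were lowest in Ad-mCherry replicate 1.

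Cog1 overlaps Fam104a over 8013 bases and Slc39a11, a zinc transporter, over 1023 bases. Fam104a had levels of 7.18, 7.12, 6.96 and 7.89 in Ad-mCherry and 8.13, 7.88, 7.45 and 8.25 in Ad-Cre-mCherry replicates 1 to 4, a difference of 0.64 (SE 0.26) beside the 0.67 of Cog1. In Fam104a as in Cog1, replicate 3 was the lowest array of each group. Slc39a11 differed by -0.19 (SE 0.22).

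Cog5 spans Gpr22, an orphan receptor, and overlaps Hbp1, a repressor of the cell cycle. Gpr22 had levels of 4.66, 5.06, 5.0 and 5.01 in Ad-mCherry and 4.07, 4.09, 4.60 and 4.21 in Ad-Cre-mCherry replicates 1 to 4, and Hbp1 differed by -0.45 (SE 0.18). Neither gene overlapped between groups, which held for 3.75% of all genes and not for Cog5 itself. Every Ad-Cre-mCherry value of Gpr22 lay below the lowest array median, 4.78, and how far this row lay above background is not known. Dus4l, a tRNA-modifying enzyme whose start lies 43 bases from that of Cog5, differed by 0.26 (SE 0.18). Nip7, a ribosome assembly factor that starts 140 bases from Cog8, had levels of 7.83 to 8.78 in Ad-mCherry and 8.83 to 9.05 in Ad-Cre-mCherry arrays, a difference of 0.52 (SE 0.21).

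The genes that COG works with were taken from 7 lists of Golgi genes, written by role, of which 100 of 105 were measured. In the fit across all genes 0 of the 100 reached an adjusted p under 0.05 (limma), and 12 passed both thresholds, the same 12 that had an unadjusted p under 0.05. Of these 12, 4 were higher and 8 lower in Ad-Cre-mCherry myotubes, where 2.92% of all genes passed higher and 3.5% lower. The median difference over the 100 was -0.03, with 46 higher and 54 lower. With replicate number as a block, 7 were higher and 11 lower past the thresholds, where 6.54% of all genes passed higher and 8.2% lower. In that blocked fit 1, Manea, reached an adjusted p under 0.05 (limma, 0.0459), as did 0.323% of all genes.

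Of the measured partners said here to bind a COG subunit directly, Scfd1, Uso1 and Stx6 did not pass the thresholds and Golga5 did. The search for the listed genes found no row for Stx5, the SNARE of Cog4, so its RNA was not analysed here. Scfd1 (Sly1), which works with Cog4 on SNARE assembly, had 9.06, 8.75, 8.63 and 9.11 in Ad-mCherry and 9.20, 8.74, 9.14 and 8.53 in Ad-Cre-mCherry replicates 1 to 4, a difference of 0.02 (95% interval -0.45 to 0.48). Uso1 (p115), the partner of Cog2, differed by -0.34 (SE 0.17) and was lower at each of the 4 numbers. Stx6, the partner of Cog6, differed by -0.30 (SE 0.23).

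Of 15 golgins and Golgi stacking proteins, 2 passed the thresholds and both were lower. Golgb1 (giantin), a long golgin of the Golgi rim, had 13.17, 13.22, 13.48 and 13.35 in Ad-mCherry and 10.95, 12.12, 12.66 and 12.52 in Ad-Cre-mCherry replicates 1 to 4. The groups did not overlap and the difference was -1.24 (SE 0.34, 2.37-fold lower). Golga5 (golgin-84), a tether that binds Cog7, differed by -0.50 (SE 0.21), and its groups overlapped by Ad-Cre-mCherry replicate 3. In the glycosylation list, the cargo that COG recycles, 12 of 18 measured enzymes were lower, the median difference was -0.20, and Manea and Man1a2 passed the thresholds. With replicate number as a block St3gal4, a sialyltransferase, passed as well, with a difference of -1.25 (SE 0.24 in that fit) that was lower at each of the 4 numbers. Without the block, the median over all genes was 0.0, and 2.92% passed higher and 3.5% lower. Those shares stand beside each list here and below. The lists were chosen with earlier results known, so nothing is read from their counts.

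Manea, an endomannosidase that trims glucosylated N-glycans in the Golgi, had 7.87, 7.46, 7.23 and 8.13 in Ad-mCherry and 5.24, 6.54, 6.08 and 6.52 in Ad-Cre-mCherry replicates 1 to 4. Every Ad-Cre-mCherry array lay below every Ad-mCherry array, by -1.58 on average (SE 0.32, 2.98-fold lower). Man1a2, a Golgi mannosidase, differed by -0.92 (SE 0.28), and Slc35a1, the carrier of CMP-sialic acid, by -0.73 (SE 0.24), the 1 of 12 Golgi transporters past the thresholds.

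Among the SNAREs and fusion factors, 1 gene was higher and 1 lower past the thresholds. Ykt6, a SNARE that pairs with Stx5 in transport within the Golgi, had 6.31, 6.54, 6.45 and 6.49 in Ad-mCherry and 7.44, 7.83, 7.04 and 6.51 in Ad-Cre-mCherry replicates 1 to 4. Its difference was 0.76 (SE 0.27), and Ad-Cre-mCherry replicate 4 alone lay within the Ad-mCherry range. Vamp4, a SNARE of the trans-Golgi network, differed by -0.67 (SE 0.28). Rab1b, which recruits tethers to early Golgi membranes, was the 1 of 11 Golgi Rab GTPases past the thresholds, with a difference of 0.56 (SE 0.24).

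Of 15 measured subunits of related tethers, 3 passed the thresholds and they ran in both directions. Exoc2 of the exocyst differed by -0.81 (SE 0.19) with no overlap between groups, and Vps54 of the GARP complex by -0.92 (SE 0.38). Vps54 stood at 5.56 in Ad-Cre-mCherry replicate 1 and at 7.08 to 7.20 in the rest of that group, its differences by number were -2.27, 0.06, -0.86 and -0.61, and the difference between groups was -0.53 without that array and -0.47 without both arrays of replicate 1, where it no longer passed. Zw10 of the complex that tethers Golgi vesicles to the endoplasmic reticulum differed by 0.71 (SE 0.27). Copz1, a subunit of the COPI coat on the vesicles that COG catches, had 8.99, 8.40, 7.85 and 7.78 in Ad-mCherry and 9.82, 9.29, 8.62 and 8.73 in Ad-Cre-mCherry replicates 1 to 4. As for Cog4, its groups overlapped while the differences by number were close to each other, at 0.83, 0.89, 0.77 and 0.95, around a mean of 0.86 (SE 0.34), but replicate 1 was the highest array of each group where in Cog4 it was the lowest. Copz1 was the 1 of 14 COPI genes past the thresholds. With replicate number as a block 3 COPI genes passed, all higher, as Copa (0.52, SE 0.17 in that fit) and Arf1 (0.57, SE 0.24 in that fit) joined Copz1. In that fit 6.54% of all genes passed higher. The block also added Tmf1 to the golgins, lower, and Atp6v0a2, higher, and Gpr89, lower, to the transporters.

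How often a partner gene stayed past the thresholds, in 12 fits that left out an array or a replicate number, differed from gene to gene. Exoc2, Golgb1, Man1a2 and Manea passed in all 12, Slc35a1 and Ykt6 in 10, Vps54 in 6, Copz1, Vamp4 and Zw10 in 5, Rab1b in 3 and Golga5 in 2. Slc35a1 and Ykt6 missed them without replicate number 1 or 2. Golga5 passed only without replicate number 3 or without Ad-Cre-mCherry replicate 3, and its difference was -0.34 without Ad-Cre-mCherry replicate 1. Rab1b passed only in those same fits and without Ad-mCherry replicate 4. Leaving out Ad-Cre-mCherry replicate 1 took Copz1 to 0.62, Vamp4 to -0.58 and Zw10 to 0.57, none of them past the thresholds. The number of partner genes past the thresholds rested on single libraries. Higher genes numbered 1 without Ad-Cre-mCherry replicate 1 or without Ad-mCherry replicate 3, 2 without Ad-Cre-mCherry replicate 2, without Ad-mCherry replicate 2, or without replicate number 1 or 3, and 0 without replicate number 2. Lower genes numbered 5 without Ad-mCherry replicate 1 or 4, and 5 without replicate number 1.

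**Figure D5:**
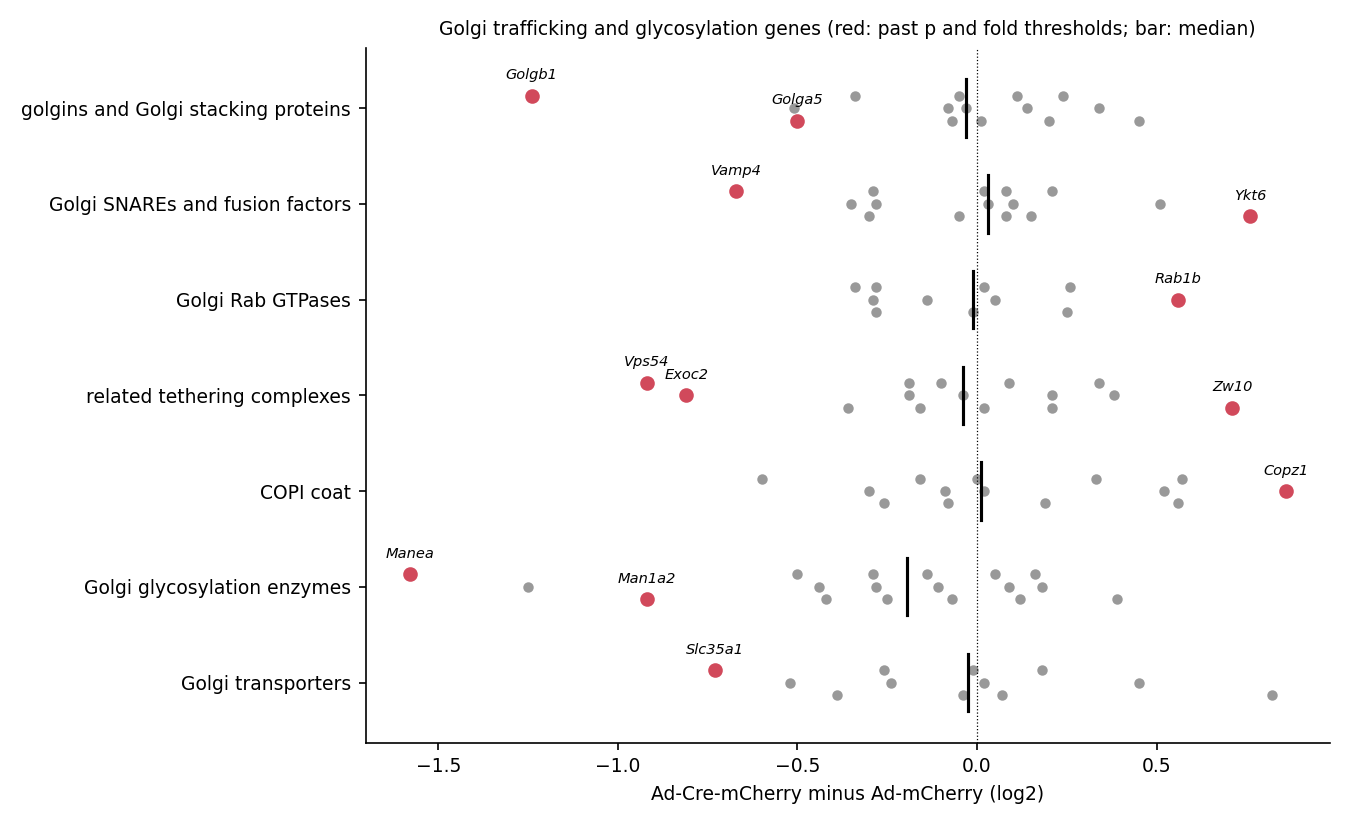
The horizontal axis gives the difference Ad-Cre-mCherry minus Ad-mCherry (log2) of 100 Golgi genes, each a point, in 7 lists, with a black bar at the median of a list and red, named points past both thresholds. Manea at -1.58 and Golgb1 at -1.24 lie farthest to the left among the named genes, and Copz1 at 0.86 farthest to the right.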

How the data were processed

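RNA of 8 arrays was analysed, 4 of RhoA flox/flox myotubes with Ad-mCherry and 4 with Ad-Cre-mCherry. The authors amplified 25 ng of total RNA, hybridised 3.6 µg of labelled DNA to Affymetrix arrays and derived the log2 values they deposited by RMA in Affymetrix Expression Console, which corrects background, normalizes by quantiles and summarises probes. The sources used here give no versions and no genome build, and the labels name a column kit where the methods name TRIzol. RMA shrinks differences of dim rows, and without detection values the distance from background is not known. Precision is limited by the number of arrays.

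Of 22206 rows, 19572 had 1 gene symbol, 0 had several and 2634 were unnamed here. The brightest row of a symbol stood for the gene, which left 19505 genes, 7 of the 8 COG genes among them. Groups were compared for all genes at once by two-sided moderated tests in limma 3.58.1 (functions lmFit and eBayes, R 4.3.3). P-values were adjusted over all genes by the Benjamini-Hochberg method, and the thresholds the study states were applied to unadjusted values. The fits were tested on simulated data. Members and lists were chosen with earlier results of these data known. The named genes are all members, RhoA, up to 4 genes past the thresholds per Golgi list, genomic neighbours, direct partners of COG and the 5 genes most like Cog4. The direct partners, and the Golgi genes past the thresholds only with the replicate block, were named outside that rule, after their values were seen.

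Arrays of the same replicate number deviated together, with correlations of their deviations from group means of 0.516 to 0.623, against -0.424 to 0.128 for different numbers, so the numbers pair the samples by the data, with 4 pairs, and the labels state no shared culture. The unpaired fit stayed the main one. Alternatives were a replicate block, normalization, a filter on low values, the mean of all rows, the variance model, array weights and leaving out arrays. A block with each replicate number left out was added after seeing the data. Motif letters were searched on both strands of RefSeq windows of 300 bases. Overlaps and distances between genes come from the RefSeq annotation of GRCm38.p6.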

Additional observations from a re-analysis of the deposited data

Results flagged for a closer look

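Among the 14 sets of 4 arrays of the 7 COG genes, 3 held an array that stood apart from the others by Dixon's ratio, the gap to its nearest neighbour over the range of the set, past its 95% critical value. Chance alone gives about 1 such set in 20. Cog3 in Ad-mCherry replicate 1 had a ratio of 0.963, at 9.78 where the other 3 arrays lay between 9.24 and 9.26. Cog2 in Ad-Cre-mCherry replicate 4 had a ratio of 0.902, at 8.07 where the others lay between 8.62 and 8.68. Cog1 in Ad-Cre-mCherry replicate 3 had a ratio of 0.859, at 10.68 where the others lay between 11.47 and 11.60. The 3 arrays differ, so no single array stood apart in more than 1 COG gene.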

How the results depend on the processing

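All values depend on 4 arrays per group. The members past the thresholds numbered 2, and 1 to 3 when an array or a replicate number was left out. With the replicate block, 1 member in place of 0 reached an adjusted p under 0.05 (limma), and the partner genes past the thresholds were 7 higher in place of 4 and 11 lower in place of 8. The shares of all genes past the thresholds rose too, from 2.92% to 6.54% higher and from 3.5% to 8.2% lower. Leaving out arrays or numbers gave 0 to 5 higher and 5 to 10 lower partner genes. The difference of Cog4 lay between 0.82 and 1.30 in every setting tried, was 1.12 after quantile normalization again and 1.06 from means of linear values. The median of the members ran from -0.01 to 0.28 when arrays or numbers were left out. The number of members that differed between replicate numbers was 1, and 0 with a trended and robust variance model, and 0 to 1 when a number was left out. The causes were not tested. Of all comparisons of a setting with the main value, 119 of the counts, the median and the difference of Cog4 stayed within 1.5 times or within the spread and 20 did not, while all 138 of the differences of the other 6 members stayed within the spread. Many of these differences could not move. The block, the variance model, the filter and the mean of rows leave a COG difference unchanged, and blocked leave-outs repeat the unblocked ones. Staying within the spread also allowed a change of sign. With arrays or numbers left out, Cog5 ran from -0.25 to 0.09, Cog6 from -0.01 to 0.28 and Cog7 from -0.21 to 0.02, while Cog1, Cog2 and Cog3 kept their sign. How far dim rows lie above background is not known.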
